A study of Mus musculus with 2 samples.

Results

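The regions described here are EHMT2 peaks that lay in repeat-poor sequence outside protein-coding genes. They were chosen from the deposited anti-HA ChIP-exo peak list by position and sequence alone. A peak was kept when it lay on chromosomes 1 to 19 or X, when less than 50% of its bases were soft-masked in the mouse assembly (lower-case letters, which mark known repeats), and when its summit lay outside every protein-coding gene record. The summit also had to lie outside all promoter windows, which covered the start of any annotated gene, 2.5 kb on its upstream and 0.5 kb on its downstream side. Of the 12556 deposited peaks, 12541 were on these chromosomes, 2338 of them were repeat-poor, and 881 met all conditions. A further 1123 repeat-poor peaks had their summit inside a protein-coding gene away from promoters, and 7377 repeat peaks lay outside genes. Both sets serve for comparison.

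The cells were mouse embryonic stem cells (mESCs) of the engineered line EHMT2-dTAG-mcherry, of BL6/129 hybrid background, grown in serum and LIF on fibroblast feeders. Their Ehmt2 gene carried a degron that lets the protein be degraded on demand, an HA epitope and an mCherry reporter. The cells received only the solvent DMSO for 24 hours, without the degrader. There was 1 group with 2 replicate libraries, which the authors pooled before calling peaks, and the labels do not say whether these came from separate clones. No value below therefore has a replicate error, and no test between conditions was possible. Neither a control-antibody library nor one from cells without EHMT2 was analysed here, so none of these values is set against a background measured in such cells.

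EHMT2, also called G9a, is a histone methyltransferase that works as a dimer with EHMT1 and places H3K9me2, a mark of silent chromatin. It does not read a DNA sequence by itself and is known to reach its sites through partner proteins, among them zinc-finger factors. In mESCs it is known for silencing genes of early development and parts of the repeat-derived genome. ChIP-exo trims the immunoprecipitated DNA with an exonuclease, which narrows down where a protein was crosslinked.

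The sequence at the summits is shown first because many of these regions, although poor in annotated repeats, were themselves made of a short unit repeated head to tail. Each stretch below holds 201 bases of the top strand of mm10 centred on the summit, and is named by the nearest protein-coding gene. The first 6 were in tandem arrays, and capitals mark alternate stretches of the length of 1 repeat unit, counted from the first base printed. The first stretch of the Atp23 region lies outside the repeated part and does not match the others. The Cbln4, Atp23 and Skap2 regions were the arrays with the highest significance among those with a unit under 60 bases. The Ednra and Fzd9 regions were the array members with the highest significance whose summit 50-mer was unique in the assembly. The Irx3 region was the array closest to a gene of the neural regulator list.
Cbln4 region, chr2:171863754-171863954: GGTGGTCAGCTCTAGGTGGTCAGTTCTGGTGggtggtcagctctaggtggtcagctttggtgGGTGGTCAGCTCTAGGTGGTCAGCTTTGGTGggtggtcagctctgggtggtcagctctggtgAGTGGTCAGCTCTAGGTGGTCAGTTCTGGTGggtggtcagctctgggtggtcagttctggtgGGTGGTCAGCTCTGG
Atp23 region, chr10:126680999-126681199: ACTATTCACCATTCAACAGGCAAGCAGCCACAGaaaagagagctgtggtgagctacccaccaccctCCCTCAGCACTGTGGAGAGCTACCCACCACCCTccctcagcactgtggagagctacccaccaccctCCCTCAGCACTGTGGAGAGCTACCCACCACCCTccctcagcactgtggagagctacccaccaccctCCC
Skap2 region, chr6:52070319-52070519: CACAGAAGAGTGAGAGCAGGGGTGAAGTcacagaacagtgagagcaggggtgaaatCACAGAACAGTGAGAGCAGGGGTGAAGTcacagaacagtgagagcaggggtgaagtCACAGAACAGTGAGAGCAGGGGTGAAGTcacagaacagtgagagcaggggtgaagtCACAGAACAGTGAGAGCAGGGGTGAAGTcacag
Ednra region, chr8:77841464-77841664: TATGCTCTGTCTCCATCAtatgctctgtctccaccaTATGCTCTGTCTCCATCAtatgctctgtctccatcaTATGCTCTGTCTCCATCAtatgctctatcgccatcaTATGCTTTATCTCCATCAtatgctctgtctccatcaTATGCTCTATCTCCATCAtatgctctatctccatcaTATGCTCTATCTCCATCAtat
Fzd9 region, chr5:135267323-135267523: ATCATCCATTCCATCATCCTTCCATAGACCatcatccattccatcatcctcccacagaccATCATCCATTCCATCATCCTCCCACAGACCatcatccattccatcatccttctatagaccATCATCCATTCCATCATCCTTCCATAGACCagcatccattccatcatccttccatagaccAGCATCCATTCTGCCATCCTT
Irx3 region, chr8:91821299-91821499: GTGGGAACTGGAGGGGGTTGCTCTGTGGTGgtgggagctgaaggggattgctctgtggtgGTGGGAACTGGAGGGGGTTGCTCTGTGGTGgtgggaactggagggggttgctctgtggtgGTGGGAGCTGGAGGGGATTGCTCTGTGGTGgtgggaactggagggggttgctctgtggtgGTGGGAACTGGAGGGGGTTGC

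The next 4 were outside tandem arrays, and their capitals mark the 50 bases at the summit. The Cntn1, Kcnk9 and C2cd5 regions are shown because they were the strongest members outside arrays with fewer than 10 genomic copies of the summit 50-mer. The Sall1 region is shown because it was the 1 member that overlapped a functional element recorded by RefSeq.
Cntn1 region, chr15:91983144-91983344: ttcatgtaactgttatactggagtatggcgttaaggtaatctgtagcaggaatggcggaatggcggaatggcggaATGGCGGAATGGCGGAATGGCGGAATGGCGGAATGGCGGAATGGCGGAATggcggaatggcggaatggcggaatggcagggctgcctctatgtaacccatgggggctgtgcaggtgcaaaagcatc
Kcnk9 region, chr15:72568611-72568811: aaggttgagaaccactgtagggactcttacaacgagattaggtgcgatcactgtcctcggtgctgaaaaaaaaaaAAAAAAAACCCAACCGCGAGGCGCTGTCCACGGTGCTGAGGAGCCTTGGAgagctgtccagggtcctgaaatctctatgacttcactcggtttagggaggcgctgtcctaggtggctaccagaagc
C2cd5 region, chr6:143129475-143129675: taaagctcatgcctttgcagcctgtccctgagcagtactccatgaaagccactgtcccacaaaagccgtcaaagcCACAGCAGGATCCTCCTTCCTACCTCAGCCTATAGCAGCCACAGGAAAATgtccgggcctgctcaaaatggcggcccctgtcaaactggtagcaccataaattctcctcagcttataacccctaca
Sall1 region, chr8:88991112-88991312: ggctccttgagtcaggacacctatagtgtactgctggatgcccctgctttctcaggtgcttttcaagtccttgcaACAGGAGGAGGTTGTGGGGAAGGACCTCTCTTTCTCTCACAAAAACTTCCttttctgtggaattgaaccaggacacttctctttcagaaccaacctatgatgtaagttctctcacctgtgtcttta
The Cntn1 stretch held an 8-base unit repeated without a break across its centre. The Kcnk9, C2cd5 and Sall1 stretches held no repeat by any measure used here, although a run of A stands beside the centre of the Kcnk9 stretch.

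Most of these peaks were low. The number of DNA fragments stacked at each summit was recovered from the deposited fold enrichment and p-value. Its median was 5, with quartiles of 4 and 7 and a maximum of 57. The lowest height among them, 4 fragments, was that of 239 members (27.1%, 95% Wilson interval 24.3 to 30.2%), and 627 members (71.2%) had 6 or fewer. The local background had a median of 0.401 fragments, and 195 members (22.1%) sat at the lowest background in the list, 0.321 fragments. Intervals here and below cover counting error only.

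The authors' fold enrichment, in which 1 is added to both the fragments and the background, had a median of 4.50 (95% interval of the median 4.43 to 4.54) among the members. It was 4.54 for repeat-poor peaks inside genes and 5.23 for all peaks outside the mitochondrial genome. The members' values ran from 3.45 to 19.4, with quartiles of 3.79 and 5.30. A q-value of 0.001 or lower was reached by 347 of the 881 members (39.4%, 36.2 to 42.7%), whereas 65.4% of all deposited peaks reached it. The share was 46.1% (43.2 to 49.1%) for repeat-poor peaks inside genes and 69.9% for repeat peaks outside genes. The members' interval lay below that of either set. A fold enrichment of 8 or more was seen in 32 members (3.63%).

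Tandem arrays were frequent at the summits. A region was called an array when its 201 summit bases matched the sequence 13 to 300 bases to either side with 80% identity or more. This held for 214 of 881 members (24.3%, 21.6 to 27.2%). Of 93363 windows of the same length, taken as every 50th window that passed the same position and masking conditions, 88 were arrays (0.0943%, 0.0765 to 0.116%). Of those 88 windows, 10 had a peak summit within 300 bases, so most of these array windows had no deposited peak. The same share over all 93363 windows is not given here, so the 10 cannot be read as few or many. The share was higher among repeat-poor peaks inside genes (35.1%, 32.4 to 37.9%), and it was 32.1% among repeat peaks outside genes. Arrays were thus seen in all of these sets of peaks, but those of the repeat peaks differed in kind. The shortest shift that reached 80% had a median of 208 bases in them, compared with 35.5 in the members and 37.5 inside genes. Their summits had a median of 23 fragments, against 7 in the arrays of either other set.

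**Figure D1:**
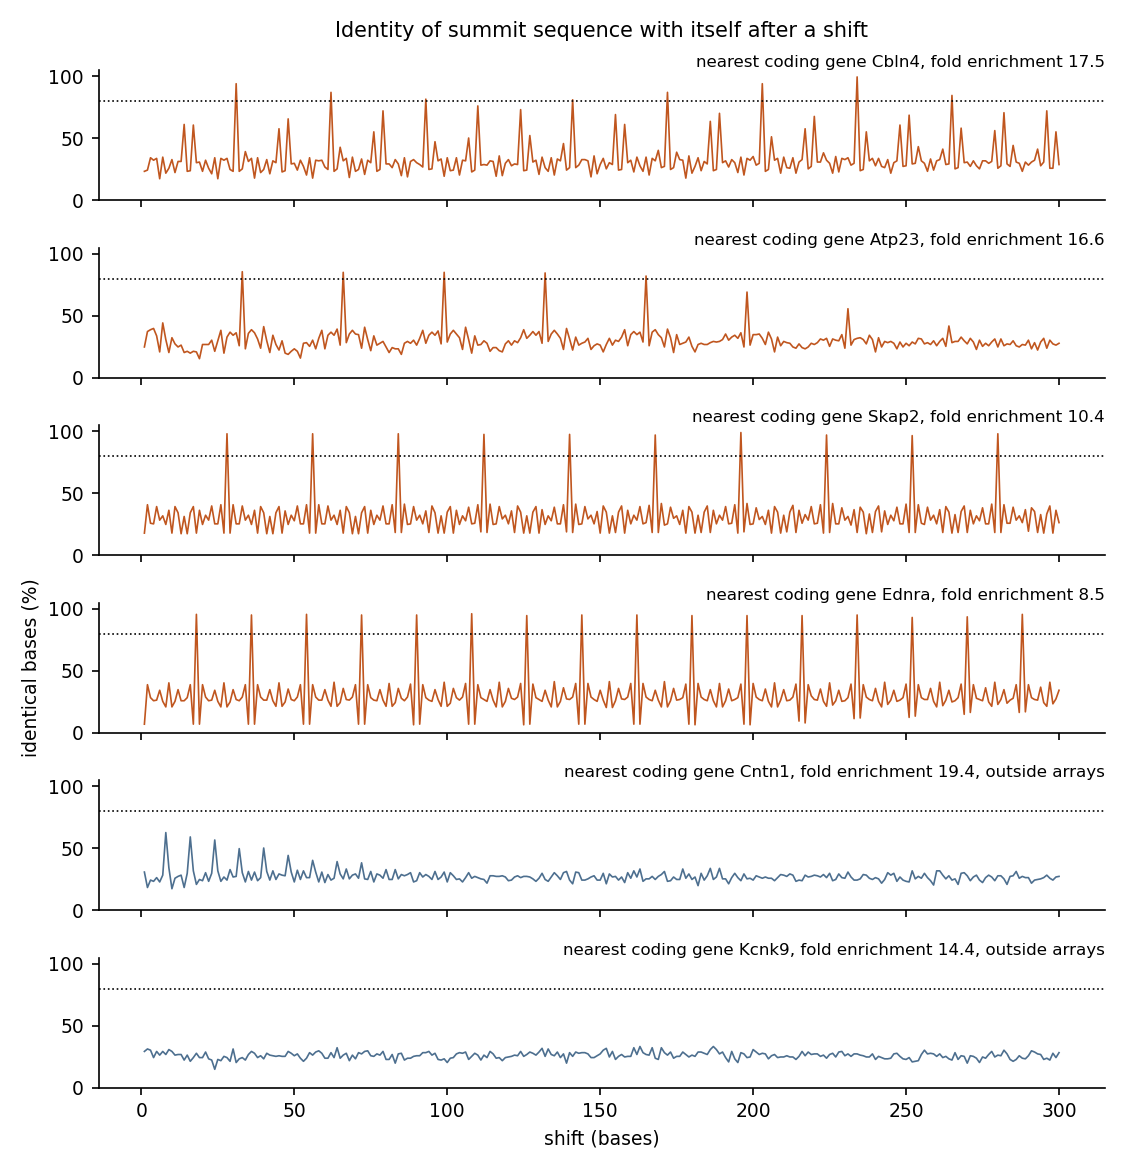
The percentage of 201 summit bases that equal the sequence a given number of bases away is plotted against that shift, for 4 members in tandem arrays (orange) and 2 outside them (blue), each named by its nearest protein-coding gene. The dotted line marks 80%. The 4 array members reach 80% or more at their unit and at further multiples of it, all of those drawn for Skap2 and Ednra and some of them for Cbln4 and Atp23. The Cbln4 region also passes 80% at shifts that are not multiples of its unit, among them its highest value, 99.5% at 234 bases. The Cntn1 region has lower peaks every 8 bases that fade with the shift, and the Kcnk9 region has none.

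Among the members' arrays, the repeat unit, taken as the shortest shift that reached 80%, had a median of 35.5 bases with quartiles of 27 and 50. In 65 members it was shorter than 30 bases, in 109 it was 30 to 60, and in 27 it was longer than 100. The arrays were local and short, with a median length of 448 bases and a range of 152 to 4250. In 108 of the 214 the identity at the best shift was 97% or more. The rule admitted only peaks under 50% masked, so these arrays do not show how often arrays are masked in general. Of the members' arrays, 180 (84.1%) had no soft-masked base within the peak, compared with 32.8% of members outside arrays. Another 2368 arrays lay among the repeat peaks outside genes, all masked at 50% or more. The 214 arrays of the members were also poor in CpG, with 137 (64%) lacking the dinucleotide within the 201 bases.

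Shorter stretches of repeated sequence were looked for in the members outside arrays. A 50-base stretch that matched itself with 90% identity at a shift of 1 to 12 bases, called a short-unit repeat, was found in 73 members (8.29%). A stretch of this length that matched at a shift of 13 to 100 bases, called a partial repeat, was found in a further 144 (16.3%). Together with the arrays, 431 members (48.9%, 45.6 to 52.2%) held repeated sequence at the summit, compared with 2.31% (2.22 to 2.41%) of the windows. Inside genes, 682 of the 1123 repeat-poor peaks did (60.7%). The remaining 450 members (51.1%) held none of these, and 411 of them had a summit 50-mer that was unique in the assembly.

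The share of arrays was higher in taller peaks up to 19 fragments. It was 6.69% (4.16 to 10.6%) among the 239 members with 4 fragments, 16.8% among the 388 with 5 to 6, 47.7% (40.5 to 55.1%) among the 176 with 7 to 9, and 65.3% (53.8 to 75.3%) among the 72 with 10 to 19. Of the 6 members with 20 or more fragments, 2 were arrays (33.3%, 9.68 to 70%). Of the 78 members with 10 or more fragments, 66 held a repeat of some kind (84.6%) and 12 held none. Repeat-poor peaks inside genes showed the same order, from 14.1% arrays at 4 fragments to 68.9% at 10 to 19. The share of members with a unique summit 50-mer fell over the same classes, from 95.4% to 76.3%, 54.0% and 22.2% for 10 to 19 fragments. Reads that fit several copies were placed at random by the authors' alignment, and the part of this placement in the heights was not tested.

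**Figure D2:**
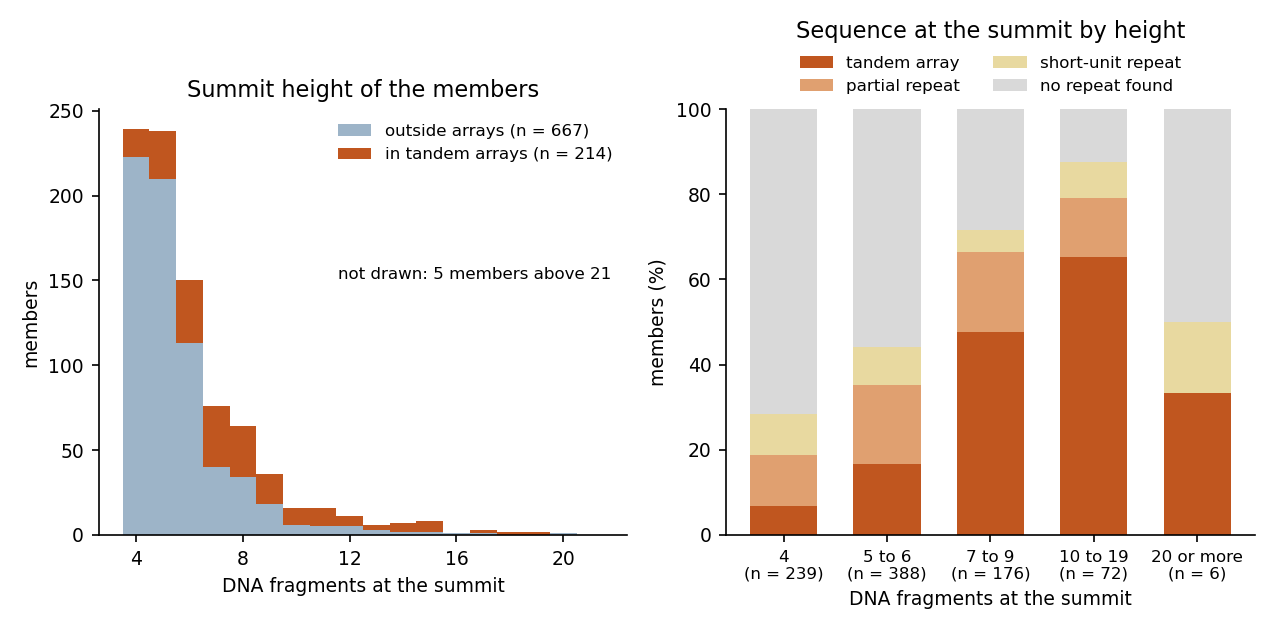
The left panel counts members by the number of DNA fragments at the summit, split into members in tandem arrays and outside them, and leaves out 5 members above 21 fragments. The right panel gives the percentage of members with each kind of sequence in 5 height classes, with the number of members under each bar. Arrays make up 6.69% of the lowest class and 65.3% of the class with 10 to 19 fragments.

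Array members had a median fold enrichment of 5.40 (interval 5.29 to 5.74), a median of 7 fragments and a median width of 255 bases. Members outside arrays had 4.32 (4.28 to 4.40), 5 fragments and 154 bases. Height did not follow array length: the median was 7 fragments in arrays under 400 bases, of 400 to 800 bases and over 800 bases alike, and Spearman's rho between length and fragments across the 214 members was 0.11, given as a description with no test. For the unit length, rho was -0.12.

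**Figure D3:**
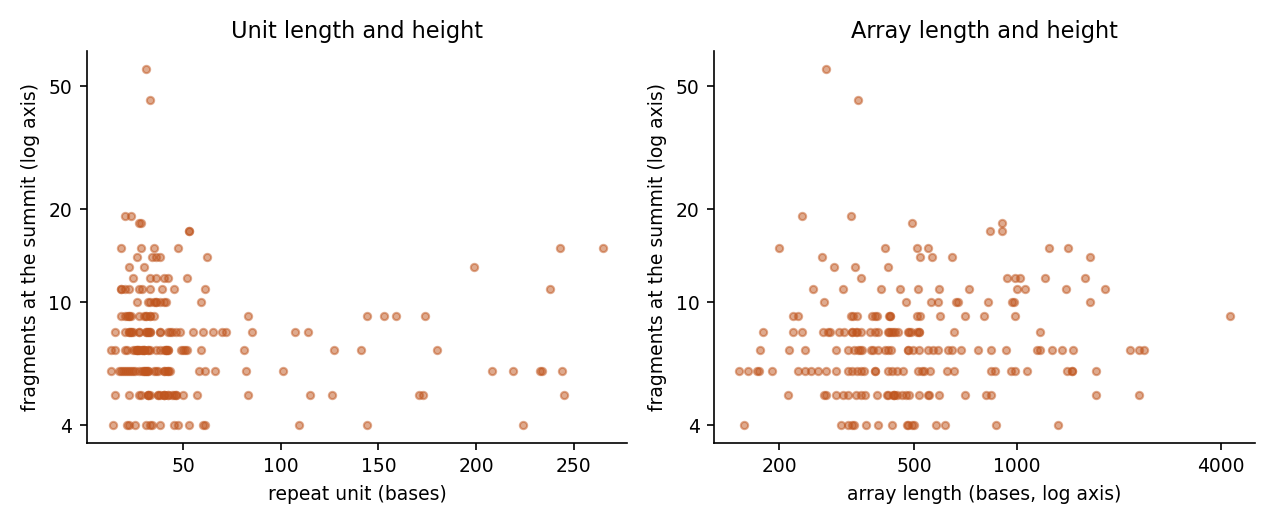
Each point is 1 of the 214 members in tandem arrays. The number of fragments at the summit (log axis) is plotted against the length of the repeat unit (left) and against the length of the array (right, log axis). The points form no clear slope, and the 2 highest members, with 57 and 45 fragments, have units of 31 and 33 bases.

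The strongest members can be read against their sequence. The member with the highest significance lay at chr2:171863524-171864284, in sequence without any gene record, 180 kb downstream of Cbln4, a secreted organiser of synapses. It had 57 fragments over a local background of 2.32 fragments. Its fold enrichment was 17.5 and its −log10 q was 52.3. Its array had a unit of 31 bases, and the 50-mer at its summit occurred 2 times in the assembly. Within 1 Mb around it, from 171000001 to 172000000 on chromosome 2, lay 5 members and no protein-coding gene record, the most members of any 1-Mb window. Fold enrichment in this window ran from 3.55 to 17.5, and 3 of the 5 members were arrays.

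The highest fold enrichment, 19.4 with 44 fragments, was at chr15:91983142-91983368, 67.9 kb upstream of Cntn1, which encodes a neural adhesion molecule. This was the region of the 8-base unit, and its summit 50-mer had 7 copies. The region at chr10:126681051-126681301, 220 kb downstream of Atp23, had 45 fragments and a fold enrichment of 16.6 in an array of 341 bases. At chr6:52070163-52070787 an array of 906 bases with a unit of 28 bases had 18 fragments and a fold enrichment of 10.4. It lay 57.9 kb upstream of Skap2. An array with a unit of 18 bases at chr6:87457489-87458047 had 15 fragments and lay 28.9 kb downstream of Bmp10, a growth factor of the heart. A second member, at chr6:87445886-87446044 with 11 fragments and a partial repeat, lay nearer to this gene at 16.97 kb. Also among the 10 members with the highest significance were an array 19.6 kb upstream of Bcat1 with 19 fragments and a 6-base repeat 4.73 kb upstream of Zbtb40 with 15. Of the 10, 6 were arrays, 2 were short-unit repeats and 2 held no repeat by these measures.

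Those 2 regions without a repeat by these measures had unique summit 50-mers. The region at chr15:72568650-72568793 had 25 fragments over a local background of 0.807. Its fold enrichment was 14.4, and it lay 22.4 kb upstream of Kcnk9, which encodes a potassium leak channel. It was 144 bases wide and held 9 CpG in its 201 summit bases. The region at chr6:143129450-143129669 had 20 fragments and a fold enrichment of 10.9, lay within the long noncoding RNA gene Gm31108, and was 29.4 kb upstream of C2cd5. Neither had a second alignment of 80% identity over 150 bases in the genome. The next members with a unique 50-mer had 13 fragments or fewer. Among the 10 unique members with the highest significance, 2 were arrays, 2 were short-unit repeats, 3 were partial repeats and 3 held none.

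The word ATGGCGG, which stands in the Cntn1 and C2cd5 stretches, was counted on both strands after these sequences had been seen. It occurred within 100 bases of the summit in 11 members (1.25%, 0.699 to 2.22%) and in 0.371% of the windows. The Cntn1 and C2cd5 regions, from which the word was taken, are among the 11. Among windows of 50 to 60% GC the word occurred in 0.924%, a value inside the members' interval. It occurred in 14 of 1123 repeat-poor peaks inside genes (1.25%, 0.744 to 2.08%). The word shares letters with the YY1 motif AANATGGC, which was present in 3.63% of members (2.58 to 5.08%) and 3.85% of windows. A match is a description of the sequence and not a site.

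GC content over the 201 summit bases averaged 47.7% ± 8.01 (SD across the 881 members), compared with 40.5% in 4667795 windows that passed the same conditions. It averaged 52.7% ± 7.15 in the 214 array members and 46.1% ± 7.61 in the 667 others. Among windows of 50 to 60% GC, 0.390% were arrays, and of the 325 members in that range 36.6% were. GC also differed with height, from a mean of 44.2% at 4 fragments to 51.0% at 10 to 19. The part of GC content in the heights was not tested.

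**Figure D4:**
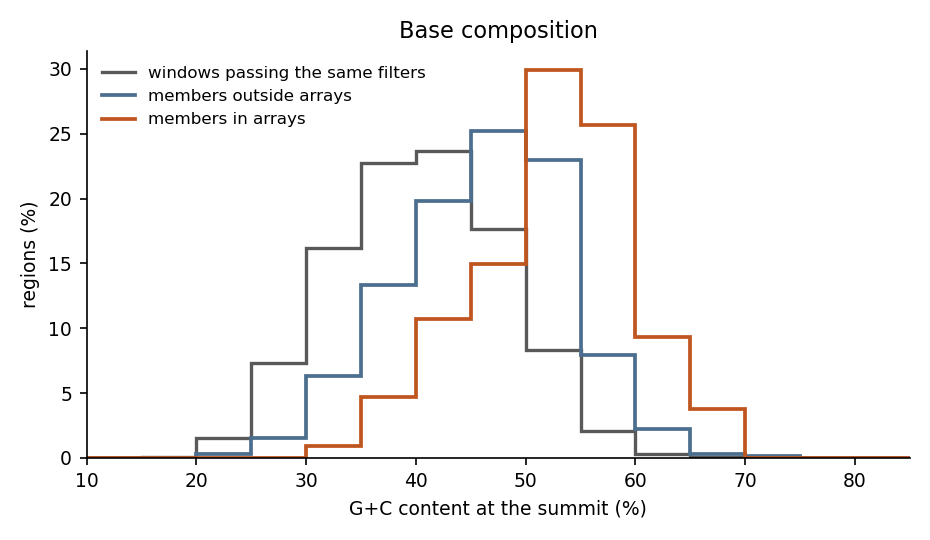
The distribution of GC content over 201 bases is drawn in steps of 5 percentage points for members in tandem arrays, members outside arrays and windows that passed the same position and masking conditions. Windows centre near 40%, members outside arrays near 46% and array members near 53%.

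CpG-dense sequence, with GC of 50% or more and an observed-to-expected CpG ratio of 0.6 or more, was found at 23 members (2.61%, 1.75 to 3.89%). The corresponding share was 0.238% of windows, 4.72% (3.63 to 6.12%) of repeat-poor peaks inside genes and 18.9% of repeat peaks outside genes. The windows were not matched for GC, which averaged 40.5% in them and 47.7% in the members. The 5-point step that starts at 50% GC held 24.6% of members and 8.35% of windows. Of the 389891 windows in that step, 6411 were CpG-dense. Whether the members' share exceeds that of windows of like GC was not tested. The Cntn1 and Kcnk9 regions were among the 23 CpG-dense members. The members had a median of 1 CpG in 201 bases, and 289 (32.8%) had none.

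The octamer ATGCAAAT of POU factors such as OCT4 was present in 4 members (0.454%, 0.177 to 1.16%), compared with 1.61% of windows and 1.03% of windows weighted to the members' GC. The SOX word CTTTGTT was present in 3.86% (2.78 to 5.34%), against 6.11% and 4.75%. The GATA word AGATAA was present in 8.74% (7.05 to 10.8%), against 15.4% and 10.4%. For these 3 words the value at matched GC lay inside the members' interval. The word CAGCTG of bHLH factors was present in 6.02% (4.63 to 7.79%), against 7.42% and 11.9%, and the MEIS word TGACAG in 10.6% (8.70 to 12.8%), against 13.5% and 15.3%. For both of these the value at matched GC lay above the interval. All were searched on both strands over 201 bases. Among members with a unique 50-mer the bHLH share was 6.91% and the MEIS share 12.4%.

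Few words were more frequent than in windows. The core motif of CTCF, the insulator protein, was found in 6 members (0.681%, 0.313 to 1.48%), all with a unique 50-mer, against 0.100% of windows and 0.223% at the members' GC. A word that overlaps it in part, AGGGGGCGC, was found in 3 members. The KLF word GGGTGTGG was present in 2.16% (1.39 to 3.34%), against 1.01% and 1.92%, with the value at matched GC inside the interval. The words TCAAGGTCA of ESRRB (0.681%), TGANTCA of AP-1 (5.90%), CCGGAAG of ETS factors (1.02%) and CACGTG of MYC-family factors (2.497%) differed from windows of matched GC by less than counting error, whereas AGGTGTGA of T-box factors was found in 3 members (0.341%, 0.116 to 0.996%), with the 1.03% at matched GC above the interval. The word TCACGTGA of MGA and TTCCCGCC of E2F factors occurred in 2 members each, and TGACGTCA of CREB in none, a count of 0 that allows a share of up to 0.341% (3 counts).

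The members were mostly single regions that shared no sequence with each other. Aligned over 301 bases at 80% identity and 150 bases or more, 28 members (3.18%) fell into 13 families, of which the largest held 3. One of these held 3 neighbouring array members within 1003 bases, 295 kb from Dusp4, with fold enrichments of 5.29, 5.87 and 8.94. Another pair, with 17 fragments each, lay within 993 bases near Kcne2, a potassium channel subunit. Against the genome at the same limits, 552 members (62.7%) had no second alignment. Of these, 26 were arrays and 516 had a unique summit 50-mer, so a missing alignment does not mean that no copy exists. Copies were aligned only within 20 kb for 229 members (26.0%), only elsewhere for 85 (9.65%) and in both places for 15 (1.70%). Of the 229 with local copies only, 180 were arrays, and none of the 85 with distant copies only was one. Of the 15 with both, 8 were arrays. The median fold enrichment was 5.30 with local copies only, 4.31 with no second alignment, 4.32 with distant copies only and 4.89 with both.

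An exact summit 50-mer occurred once in the assembly for 637 members (72.3%, 69.3 to 75.2%), 2 to 10 times for 203, 11 to 100 times for 36 and more than 100 times for 5. The corresponding share of unique 50-mers was 63.7% inside genes and 6.32% for repeat peaks outside genes. Some members were unmasked copies of known sequences. At least 80% identity to a protein-coding transcript over 150 bases or more was found for 22, led by a copy of Zfp384 sequence (97.5% identity over 197 bases, 9 fragments) 12.6 kb from the start of Kdm4c, an H3K9 demethylase gene. A copy of Zfp426 sequence had 8 fragments and 2 copies of Hmmr sequence had 8 and 7. One further member, with 7 fragments, aligned to the mitochondrial genome.

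The rule itself kept members out of protein-coding genes and promoters. The nearest start of any annotated gene was at a median of 19.3 kb (interval 17.8 to 20.8 kb), close to the 18.3 kb of repeat-poor peaks inside genes and below the 27.5 kb of all peaks and the 33.3 kb of repeat peaks outside genes. The nearest protein-coding start was at a median of 63.5 kb (56.7 to 74.7 kb), against 106.1 kb for all peaks, 168.9 kb for repeat peaks outside genes and 35.5 kb for repeat-poor peaks inside genes. It was within 10 kb for 87 members (9.88%), at 10 to 100 kb for 441 (50.1%), at 100 to 500 kb for 289 (32.8%) and farther for 64 (7.26%). The member lay upstream of that start in 558 cases (63.3%, 60.1 to 66.5%), and 62.4% of repeat peaks outside genes did so too. No gene record of any kind covered the summit in 766 members, a long noncoding RNA gene covered it in 102, a pseudogene in 11 and another noncoding record in 2. Median fold enrichment was 4.47 without a record and 4.54 in long noncoding RNA genes. In the RefSeq annotation, which differs from the one used for selection, 24 summits lay inside a protein-coding gene, among them 2 in Plac8 and 2 in Snrpn, an imprinted gene.

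Members were spread along the chromosomes. Another peak of any kind lay within 10 kb of 66 members (7.49%, 5.93 to 9.42%), compared with 9.35% of repeat-poor peaks inside genes and 21.6% of repeat peaks outside genes. The nearest peak was another member for 29 of the 66 and a repeat peak for 30. Of the 1-Mb windows that held any member, 531 held 1, 120 held 2, 31 held 3, 3 held 4 and 1 held 5. The windows with 4 were chromosome 2 from 169000001, with Tshz2, chromosome 16 from 92000001, with Runx1 and the Kcne genes, and chromosome 5 from 100000001.

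Chromosome X had the lowest density. It held 10 members in 53.8 Mb of unmasked sequence that met the position conditions, or 0.186 per Mb (exact Poisson interval 0.0891 to 0.342), whereas the autosomes held 871 in 806 Mb, or 1.08 per Mb (1.01 to 1.16). Repeat-poor peaks inside genes were also rare on X, with 10 of 1123 (0.890%), whereas X held 8.15% of all peaks on these chromosomes. Repeat peaks outside genes were not, with 13.9 per Mb of masked sequence on X and 12.96 on the autosomes. The X members had 4 to 7 fragments and 3 were arrays. Densities were highest on chromosome 8, with 72 members or 1.66 per Mb (1.295 to 2.08), and on chromosome 9, with 61 or 1.61 (1.23 to 2.06), and the other autosomes ran from 0.804 to 1.18. Chromosome 8 also held the most repeat-poor peaks inside genes, 92 of 1123, and it held 729 of the 12541 peaks of any kind. The deposited list also held 13 peaks on chromosome Y, which the rule left out. The number of copies of each chromosome in this line is not given in the sources used here, and its part in these densities was not tested.

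**Figure D5:**
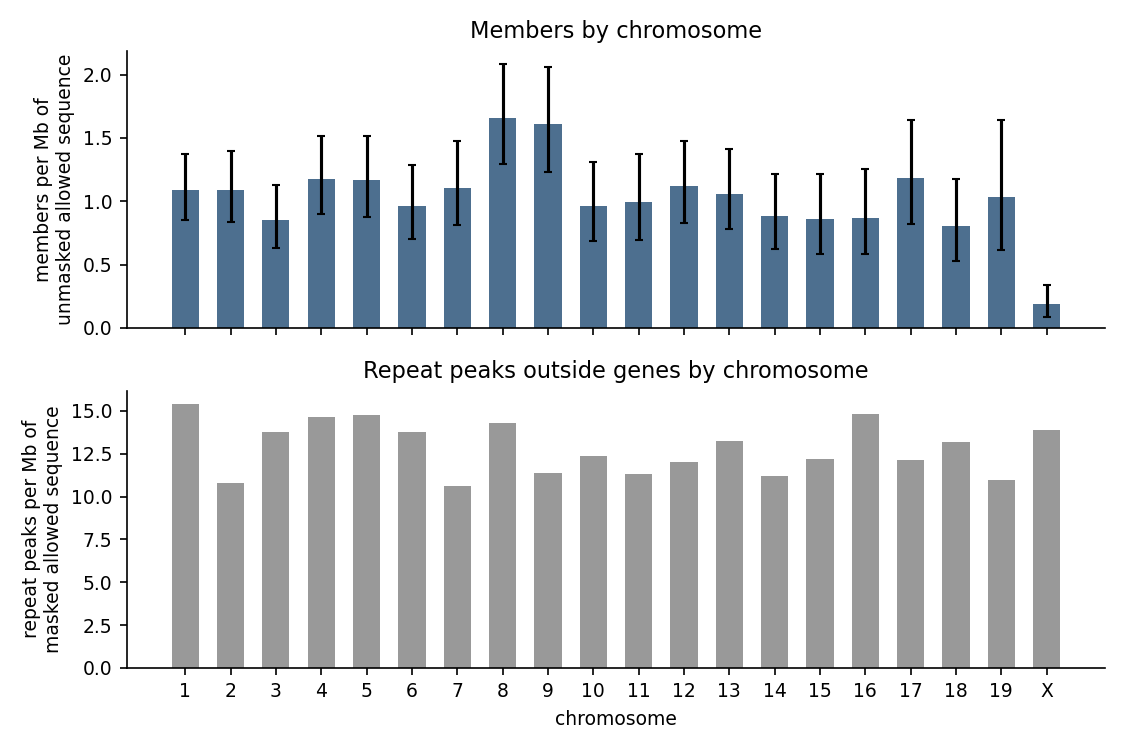
The upper panel gives the number of members per Mb of unmasked sequence that met the position conditions, with exact Poisson 95% intervals, for each chromosome. The lower panel gives repeat peaks outside genes per Mb of masked sequence. Chromosome X is lowest in the upper panel at 0.186 per Mb and lies at 13.9 per Mb in the lower one.

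Members were looked up near genes of fixed lists. A member lay within 100 kb of the start of 1305 of 21755 protein-coding genes (5.999%, 5.69 to 6.32%). Among 40 neural regulators this held for 7 (17.5%, 8.75 to 31.95%), and among 20 endoderm regulators for 4 (20%, 8.07 to 41.6%), with intervals that are wide. Within 50 kb it held for 2 genes of either list (5% and 10%), against 3.14% of all genes. Nkx6-1, which patterns the ventral neural tube, had an array with 7 fragments and a fold enrichment of 6.06 at 29.4 kb. Irx3, a patterning factor of the neural plate, had the array printed above at 19.3 kb, with 7 fragments and 5.45. Six3, a regulator of the forebrain and eye, had a member with 7 fragments at 92999 bases. The pioneer factors Foxa1 and Foxa2 each had a unique member of 5 fragments without a repeat, at 9.97 and 16.2 kb, the second within the long noncoding RNA gene 9030622O22Rik. Hhex, a regulator of liver and thyroid, had one with 5 fragments at 53.4 kb.

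Mesoderm regulators (2 of 30), pluripotency regulators (2 of 25) and neural adhesion genes (3 of 47) had shares of 6.67%, 8% and 6.38%. The 2 pluripotency genes were Zfp42, at 9.67 kb from a member with 10 fragments over a local background of 1.63, whose fold enrichment was 4.18, and Fgf4. A list of 30 genes of H3K9 methylation and related silencing had 4 with a member (13.3%, 5.31 to 29.7%), an interval that holds the 5.999% of all genes. These were Kdm4c, which encodes an H3K9 demethylase, and Dnmt3l, Dnmt3b and Dnmt1, which belong to DNA methylation, and none of them encodes an H3K9 methyltransferase. The Dnmt3l member, at 24.6 kb, was an array with 14 fragments and a fold enrichment of 8.62. Of 391 zinc-finger genes 15 had a member (3.84%, 2.34 to 6.23%), again with the share of all genes inside the interval. The nearest members of these 15 genes were 11 peaks, so they are not fully independent counts. Of 1420 olfactory and vomeronasal receptor genes 39 had one (2.75%, 2.02 to 3.73%), but their nearest members were only 8 peaks, so these genes are not independent counts. Of 26 two-cell-stage genes 2 had a member (7.69%, 2.14 to 24.1%), and the share of all genes lay inside the interval. These were Zscan4b and Zscan4c, which shared 1 member with 5 fragments. The summit 50-mer of this member occurred 2 times in the assembly, so its position is less certain. No gene of this list had a member with a unique 50-mer within 100 kb.

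The 1 overlap with a functional element recorded by RefSeq was at chr8:88991181-88991335, within a region recorded as raising Sall1 expression in mouse ES cells. Sall1 encodes a zinc-finger transcription factor. The peak had 6 fragments over a local background of 0.887 fragments, with a fold enrichment of 3.71 and a unique 50-mer, and lay 53.0 kb from the gene's start. Among 2270 such elements on these chromosomes, 1015 are enhancers.

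Between 40 and 50% masked lay 90 members, and between 50 and 60% lay 73 repeat peaks outside genes. The 5 members just under the limit were 49.3 to 49.7% masked, with 4 or 5 fragments and fold enrichments of 3.63 to 4.54. The 5 peaks just over it were 50 to 50.2% masked, and had 4 or 5 fragments except for 1 with 10, with fold enrichments of 3.79 to 7.96.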

How the data were processed

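Anti-HA ChIP-exo was measured in 2 libraries of 1 group. According to the methods and the submitters' processing notes, the authors aligned reads to mm10 with STAR 2.7.10, writing reads with several equally good sites once at a random one, removed duplicates with Picard 2.26.0, removed high-signal regions with SAMtools 1.14, and called peaks with MACS2 2.2.6 without a control (bedtools 2.30.0 and deepTools 3.5.1 are also named). The deposited list pools both libraries; whether it is the final peak set counted in the study was not established. It holds a score, the authors' fold enrichment (a ratio of summit fragments plus 1 to local background plus 1) and the deposited −log10 p and −log10 q, all with q below 0.05.

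Fragments and background were recovered from fold and p within 0.0001 (879 of 881 members had 1 solution); the depth of each library was not given in the sources used here. Sequence came from GRCm38.p6, genes from GENCODE vM21. Repeats, k-mers, motifs and windows were counted with Python 3.11.15 and numpy 2.4.6, and tested on simulated data. BLAST+ 2.17.0 aligned the members. Named regions were the 10 with the highest −log10 q, the 10 highest with a unique 50-mer, the largest families, the fullest 1-Mb windows and those near listed genes. Members and lists were chosen with earlier results of these data known, and the repeat measures and the word ATGGCGG were added after the data were seen. With 1 pooled list no replicate error exists, so shares carry Wilson intervals and are descriptions. Some named regions and 1 gene list are not reported here.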

Additional observations from a re-analysis of the deposited data

How the results depend on the processing

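No paired analysis was possible because the labels give 1 group, pooled into 1 peak list, and no replicate could be left out for the same reason. Of 103 recomputed main values, 64 stayed within the interval (or 1.5 times the count) of the value given, and the others were as follows. The repeat measures were added after the data were seen. With members limited to a q-value of 0.01, the median fold enrichment was 4.93, unique 50-mers 63.4%, GC 49.1%, a peak within 10 kb 5.84% (counting only peaks at that q-value), arrays 31.3% and any repeat 57.4%. With 0.001, 347 members remained, with 5.61, 52.2%, 50.1%, 5.48%, 44.96% and 72.3%, and 4.90% in families. Under 25% masking, 43.9% reached a q-value of 0.001, unique 50-mers were 66.98%, GC 49.2% and arrays 31.0%. With no masked base, 399 members remained, the median fold enrichment was 4.77, 50.9% reached 0.001, unique 50-mers were 56.1%, GC 50.7%, arrays 45.1% and any repeat 61.4%. Among members with a unique 50-mer, these were 4.32, 28.4%, GC 46.4%, arrays 6.59%, any repeat 35.5% and families 0.628%. With 36 or 100 bases in place of 50, 68.1% or 85.6% were unique. GC over 250 bases to either side was 47.2%. The median distance to a protein-coding start was 63450 bases. A peak lay within 5 kb of 3.86% and within 50 kb of 36.7%. Array shares were 29.3% at 70% identity and 18.6% at 90%. Shares of listed genes were also taken within 50 and 500 kb, where all genes had 3.14% and 28.1%, neural regulators 5% and 42.5%, and endoderm regulators 10% and 45%. The cause of these differences was not tested. Members outside every gene record, promoters of 1 kb to either side, peak midpoints in place of summits and merged neighbours left the 40 values computed under them within these limits. Heights of 4 to 6 fragments limit what can be said of single members.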
